A study of Mus musculus with 53 samples.

Results

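The sciatic nerve (SCN) of HFD-STZ mice, the type 2 diabetes (T2D) model of the study, was compared between 16 and 24 weeks of age. Of the 53 SCN libraries in 8 groups, 13 were labelled as HFD, with streptozotocin (STZ) and without dietary reversal, 5 at 16 weeks and 8 at 24 weeks, and these 13 were all used. Per the study's methods, all of these mice were male C57BL/6J animals that ate a high-fat diet (HFD, 60% of energy as fat) from 5 weeks of age. All 13 also came from mice given STZ, a toxin of the insulin-producing beta cells, at 12 weeks, first at 75 mg/kg and 3 days later at 50 mg/kg. Age, time on HFD and time since STZ rise together between the groups, so their parts in a difference cannot be told apart. The same age comparison was made in 5 and 8 libraries of mice on the standard diet (SD) and in 7 and 7 libraries of HFD mice without STZ, the prediabetic model. These comparisons share no library with HFD-STZ. The labels do not say whether each library came from 1 mouse, so p-values measure the spread between libraries.

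Each library was deposited as 1 log2 value per gene for 49568 genes, and the number of reads behind a value is unknown, so error is given as the spread between libraries. Tested were 17965 genes, those whose log2 values averaged 3.32 (10 on the linear scale) or more over the 13 libraries. Another 23 genes reached values above 22 and were not tested. Correlations between the 13 libraries ran from 0.928 to 0.994, and 0 pairs were identical. The Schwann cell markers that define the tissue were present in every library, with Pmp22, a protein of peripheral myelin, between 19.51 and 20.53 and Sox10, the Schwann lineage factor, between 14.48 and 15.27. In a piece of nerve, fewer cells of a type and less RNA per cell cannot be told apart.

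One library stood apart. In replicate 7 of the 24-week group, 1129 genes lay over 1 log2 unit above all other 24-week libraries and 281 genes over 1 unit below, against 109 and 45 in replicate 6, the next most extreme. All 23 genes with a value above 22 had it in this library alone, at 49.8 to 61.4, while the other 12 libraries held them at 5.49 to 11. They include transcripts of sensory neurons such as Calca, Tac1, Scn10a, Avil and Pirt, and 8 of them belong to a list of 21 neuronal transcripts. The 12 tested members of that list averaged 12.46 in replicate 7 and 7.09 to 7.67 in the other 12 libraries, and 12 of 12 were highest there. Results are therefore given with this library and, where its removal matters, without it. In addition, skeletal muscle markers averaged up to 10.72 in 24-week replicates 3 to 6, all above the 5.99 to 7.81 of 16 weeks, and adipocyte markers averaged 8.41 to 11.92 at 16 weeks and 10.06 to 12.82 at 24 weeks, with 5 of 8 above every 16-week library. The plot of marker lists shows these values by library.

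**Figure D1:**
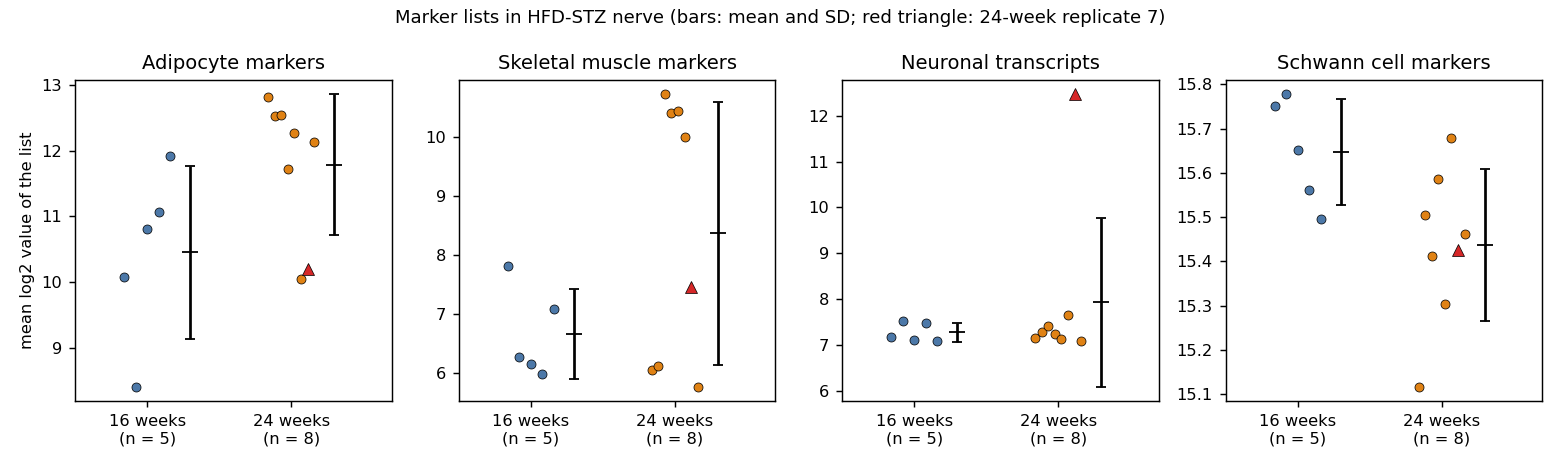
Mean log2 value of 4 marker lists (y axis, log2) in each HFD-STZ library at 16 weeks (blue, n = 5) and 24 weeks (orange, n = 8), with mean and SD as bars and 24-week replicate 7 as a red triangle. Replicate 7 reaches 12.46 for neuronal transcripts, 4 of the 24-week libraries lie above every 16-week library for muscle markers, and 5 of 8 lie below every 16-week library for Schwann cell markers.

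The SCN is made mostly of myelinating Schwann cells, which wrap axons in a membrane rich in cholesterol and galactolipids. Schwann cells make this cholesterol themselves, through a pathway that HMGCS1 serves at an early step and whose genes are driven by SREBP2 at sterol response elements when sterol is short. Interferon-stimulated genes (ISGs) are switched on by interferon or by sensors of viral nucleic acid, through factors such as IRF7, which bind interferon-stimulated response elements. Adipocytes of the epineurium store triglycerides (TGs) around the nerve and express lipid-handling genes such as Lpl, Cd36 and Dgat2.

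Promoter stretches are shown for a member of the cholesterol synthesis list and for members of the ISG list, because both gene groups are known for a short regulatory sequence. The windows reach from 250 bases before to 50 after the start site (RefSeq, GRCm38.p6), and a window was found for 17 of 25 cholesterol synthesis genes and 16 of 22 ISGs. The sterol response element core was searched as TCACNCCAC and the interferon-stimulated response element core as GAAA, any 2 bases and GAAA again, on both strands, and overlapping matches were merged. The sterol core was present in 388 of 27025 genes' windows (1.44%) and in 1 of the 17 (5.88%), Hmgcs1. The interferon core was present in 1079 of 27025 (3.99%) and in 10 of the 16 (62.5%), among them Bst2, Isg15, Ifit1 and Ifit3, and was not in the Irf7 window. Capitals mark the match, each sequence reads 5′ to 3′ on the gene's own strand, and for Ifit1 and Ifit3 the core lies on the opposite strand.
Hmgcs1, chr13:119690194-119690242, plus strand: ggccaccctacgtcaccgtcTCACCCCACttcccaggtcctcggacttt
Bst2, chr8:71537567-71537622, minus strand: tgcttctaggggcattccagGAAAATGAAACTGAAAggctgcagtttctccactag
Isg15, chr4:156200855-156200916, minus strand: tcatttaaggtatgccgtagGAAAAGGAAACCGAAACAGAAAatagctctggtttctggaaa
Ifit1, chr19:34640765-34640833, plus strand: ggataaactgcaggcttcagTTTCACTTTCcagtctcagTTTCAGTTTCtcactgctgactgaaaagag
Ifit3, chr19:34583353-34583436, plus strand: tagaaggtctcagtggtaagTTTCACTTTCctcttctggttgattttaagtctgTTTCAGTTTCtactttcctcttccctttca

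Between 16 and 24 weeks, ISGs, oxidative phosphorylation genes, and TG and fatty acid handling genes of HFD-STZ nerve were mostly higher, and cholesterol synthesis, myelin and collagen genes were mostly lower, but with 5 against 8 libraries no gene passed the threshold on its own. With limma and Benjamini-Hochberg adjustment, 0 of 17965 genes (0%) had an adjusted p under 0.05, and the smallest adjusted p was 0.063, for Irf7. At an unadjusted p under 0.05, 1050 genes (5.84%) were higher and 1201 (6.69%) lower at 24 weeks, and the median difference over all genes was 0.0027 log2 units. The groups did not overlap for 92 genes (0.512%) higher and 108 genes (0.601%) lower at 24 weeks. When all 8 groups shared 1 estimate of the spread, 13 of 17963 genes (0.0724%) passed, 12 of them lower, and 2521 had an unadjusted p under 0.05. In that fit Ugt8a, Npy6r, Sc5d, Lss, Col26a1, Selenoi, Mboat1, Scn3b, Slco3a1 and the predicted genes Gm13502 and Gm37509 were among the genes that fell, and Paqr9 rose. Without 24-week replicate 7 the same fit called 1 gene, Scn3b (log2 difference -0.59, adjusted p = 0.0192), while Ugt8a was at -0.60 with an adjusted p of 0.0555. Below, counts within a list are at the unadjusted threshold and are read against 5.84% and 6.69%.

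**Figure D2:**
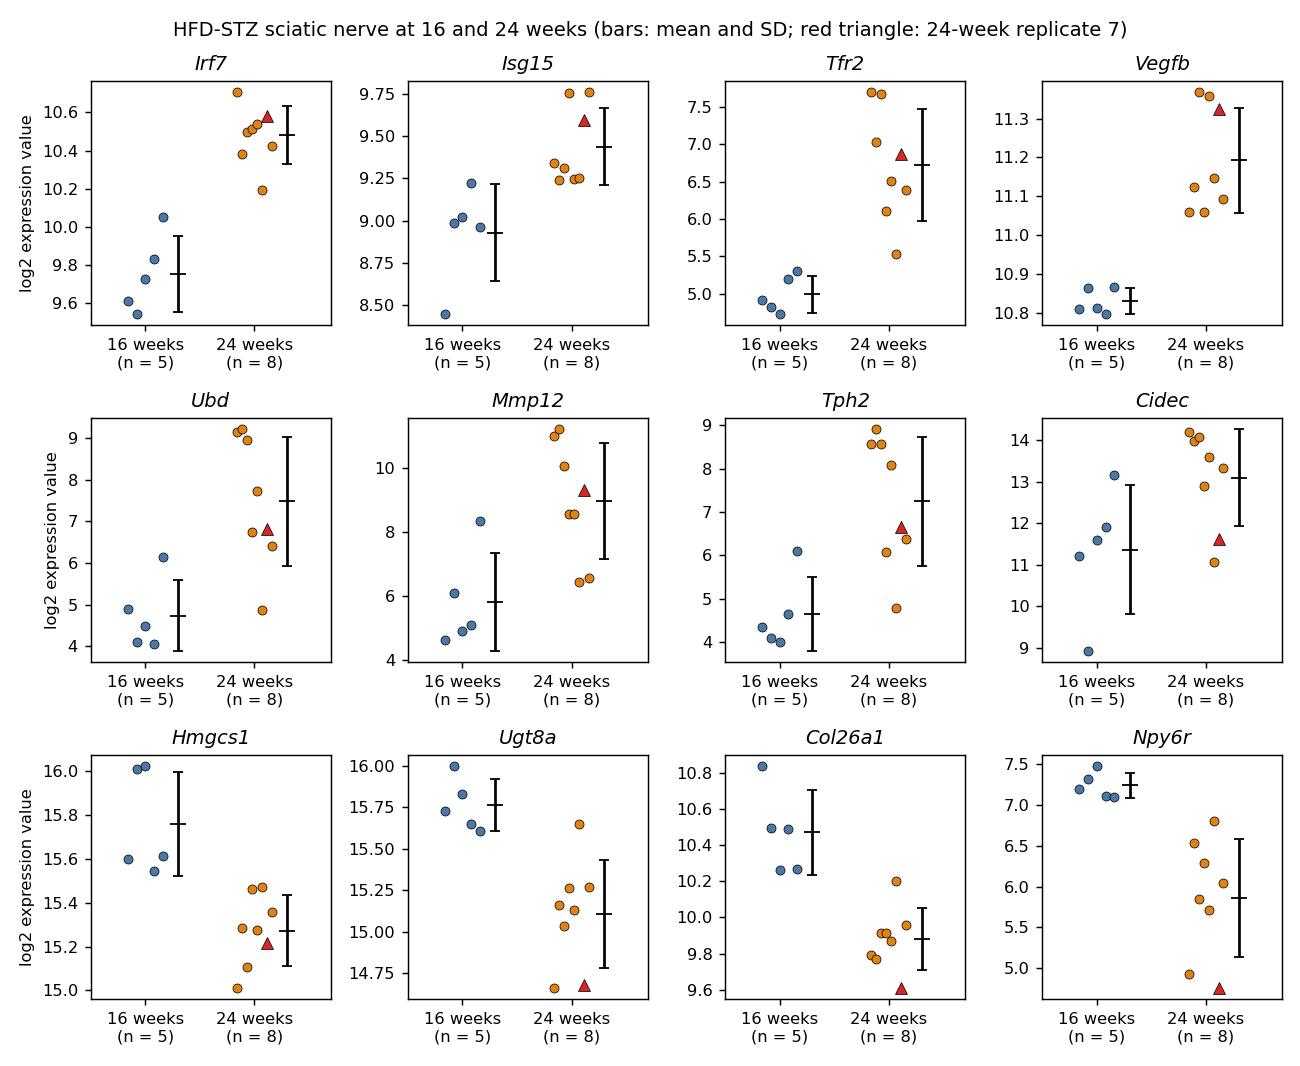
Log2 expression values (y axis, own scale per panel) of 12 genes in each HFD-STZ library at 16 weeks (blue, n = 5) and 24 weeks (orange, n = 8), with mean and SD as bars and 24-week replicate 7 as a red triangle. The groups do not overlap for Irf7, Isg15, Tfr2 and Vegfb (higher at 24 weeks) or for Hmgcs1, Col26a1 and Npy6r (lower), and overlap by 1 library or more in the other 5 panels.

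Irf7, the transcription factor that amplifies the type I interferon response, had the smallest p of all genes. The gene lies at chr7:141262706-141266481 on the minus strand (GRCm38). Its log2 values were 9.61, 9.54, 9.72, 9.83 and 10.05 at 16 weeks, and 10.19 at the lowest, 10.51 at the median and 10.71 at the highest at 24 weeks. All 8 libraries at 24 weeks were above all 5 at 16 weeks, and the means were 9.75 ± 0.20 (SD, n = 5) and 10.48 ± 0.15 (SD, n = 8), a difference of 0.73 ± 0.10 log2 units (SE) or 1.66-fold. The exact permutation test (2-sided) gave p = 0.000777, the smallest it can give with 5 and 8 libraries. The adjusted p of 0.063 went to 0.0256 without 24-week replicate 6, to 0.0213 without 16-week replicate 5 and to 0.0258 when each library was centred on its median, and ranged from 0.0213 to 0.451 over 28 alternatives.

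The rest of the ISG list showed smaller differences in the same direction. Of 22 ISGs tested, 21 had a positive difference, 11 were higher at an unadjusted p under 0.05 and 0 lower, and the list's median was 0.35 log2 units against 0.0027 over all genes. Isg15, a ubiquitin-like modifier, was at 8.45, 8.99, 9.02, 9.22 and 8.96 at 16 weeks and ran from 9.24 through a median of 9.33 to 9.76 at 24 weeks, so the groups did not overlap, by a narrow margin. The difference was 0.51 ± 0.14 (SE). Bst2, or tetherin, which holds budding virus at the cell surface, was at 10.38, 10.61, 10.55, 10.78 and 10.69 at 16 weeks and between 10.75 and 11.12 at 24 weeks, with 7 of 8 above every 16-week library. Ifit1, a sensor of foreign RNA, and Ifit3 of the same family differed by 0.50 ± 0.15 and 0.38 ± 0.14 (SE), each with 5 of 8 libraries above every 16-week library. Usp18, which removes ISG15 and damps the interferon receptor, differed by 0.60 ± 0.17, Rtp4 by 0.50 ± 0.13, Ifi44 by 0.45 ± 0.13, and the 2′-5′ oligoadenylate synthetase gene family members Oasl1 and Oas1a by 0.50 ± 0.19 and 0.42 ± 0.17. Other members were near 0, such as Ddx58 at 0.07 ± 0.12 and Ifih1 at 0.03 ± 0.13, and Ifit2 was at -0.14 ± 0.08. Isg15, Ifit1 and Ifit3 were picked for these values and for their promoters.

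The ISG count was 12 without 24-week replicate 7, 11 without the 4 muscle-high libraries, and 8 with adipocyte markers as a covariate. The members of the Ifit and Oas families are similar in sequence, so reads may have been shared between them. MHC class II genes, which present antigen and respond to interferon gamma, had 0 of 10 past the unadjusted threshold in either direction and a median of 0.27. H2-Ab1 differed by 0.34 ± 0.17 (SE) and H2-Eb1 by 0.30 ± 0.16.

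Cholesterol synthesis genes were lower at 24 weeks. Of 25 tested, 21 had a negative difference, 13 were lower at an unadjusted p under 0.05 and 0 higher, with a median of -0.34 log2 units. Hmgcs1, which makes HMG-CoA early in the pathway and whose promoter core is shown above (gene at chr13:119690379-119708260, plus strand), did not overlap between the ages. It was at 15.60, 16.01, 16.02, 15.55 and 15.61 at 16 weeks and at 15.01 to 15.47 at 24 weeks (median 15.28), a difference of -0.49 ± 0.11 (SE) or 1.40-fold higher at 16 weeks (exact permutation p = 0.000777, limma adjusted p = 0.279). The predicted gene Gm48342 covers 12.1% of the exon sequence of Hmgcs1, and the labels and the study's methods name different library kits, so whether reads of the pair were told apart by strand is not known here. Further down the pathway, Idi1 was at -0.55 ± 0.13, the lanosterol synthase gene Lss at -0.50 ± 0.12, Cyp51 at -0.49 ± 0.13 and Sc5d at -0.47 ± 0.11. Srebf2, which encodes SREBP2, was at -0.12 ± 0.09. Members with no such difference were Ebp at 0.14 ± 0.09, Mvk at 0.02 ± 0.18 and Pmvk at 0.02 ± 0.16. Without 24-week replicate 7, 20 of 25 passed the unadjusted threshold (median -0.40), against backgrounds of 7.8% higher and 7.58% lower genes in that fit. With adipocyte markers as a covariate 8 did (median -0.11), and there the backgrounds were 7.3% and 8.4%.

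Fatty acid synthesis genes, whose products also feed myelin, were mixed, with 2 higher and 5 lower of 15 tested and a median of -0.15. Without 24-week replicate 7, 4 were higher and 7 lower (median -0.17), and with adipocyte markers as a covariate 1 was higher and 2 lower (median -0.08). Elovl6, which lengthens C16 fatty acids, was at 13.50, 13.53, 13.47, 13.23 and 13.26 at 16 weeks and at 12.49 to 13.44 at 24 weeks (median 12.90), a difference of -0.46 ± 0.13 (SE). Thrsp, a lipogenic gene of adipose tissue, differed by 1.21 ± 0.37 in the other direction, and by 0.48 with adipocyte markers as a covariate.

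Myelin genes were lower as well, though by less. All 16 tested had a negative difference, 6 were lower at an unadjusted p under 0.05 and the median was -0.26. With adipocyte markers as a covariate 2 of the 16 were lower (median -0.11), against a background of 8.4% lower genes in that fit. Ugt8a, which makes galactosylceramide, the main galactolipid of myelin (chr3:125865271-125938619, minus strand), was at 15.73, 16.00, 15.83, 15.65 and 15.61 at 16 weeks and at 14.66 (lowest), 15.15 (median) and 15.65 (highest) at 24 weeks. Here 7 of 8 libraries lay below all 16-week libraries, with a difference of -0.66 ± 0.15 (SE) and an exact permutation p of 0.00311. Fa2h, which hydroxylates the fatty acids of these lipids, was at -0.37 ± 0.10 (SE), with 7 of 8 libraries below the 16-week range of 15.28 to 15.56. The structural genes Pmp2 and Prx were at -0.46 ± 0.18 and -0.31 ± 0.11 (SE), Mobp at -0.66 ± 0.22, and Mbp and Egr2, the master regulator of myelination, at -0.30 ± 0.17 and -0.11 ± 0.11. Beside these lists, the mean of the Schwann cell markers, which share members such as Pmp22 and Prx with the myelin list, was lower in 5 of 8 libraries than in any 16-week library (15.12 to 15.68 against 15.50 to 15.78), and 4 of 10 markers passed the unadjusted threshold, all lower, with a median of -0.26, or 2 of 10 and -0.18 with the adipocyte covariate. Its part in the myelin and cholesterol differences was not tested. Among these markers, Erbb3, the neuregulin receptor, was at -0.32 ± 0.11 (SE) and Scn7a at -0.34 ± 0.10.

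Genes of the node of Ranvier and paranode, where Schwann cells meet the axon, had 6 of 18 lower and 0 higher, with a median of -0.20. Nrcam, a cell adhesion molecule of the node, was at 12.21, 12.27, 12.12, 11.93 and 12.02 at 16 weeks and at 11.46 to 11.98 at 24 weeks (median 11.74), with 7 of 8 below all 16-week libraries. Nfasc and Gldn, its partners in node assembly, were at -0.36 ± 0.11 and -0.41 ± 0.15 (SE). Axonal members of the list varied with 24-week replicate 7, such as Cntnap2 at 0.24 ± 0.79 and Cntn2 at 0.27 ± 0.80. Without the 4 muscle-high libraries, against backgrounds of 5.12% higher and 6.26% lower genes, 8 node and 7 myelin genes were lower. With adipocyte markers as a covariate 3 node genes were lower and 1 higher (median -0.04), against the backgrounds of 8.4% and 7.3% in that fit. Repair Schwann cell genes, which mark the response to nerve injury, had 2 higher and 1 lower of 14, with a median of 0.10, and Jun, their regulator, was at 0.26 ± 0.11 (SE).

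Collagen genes were lower to a varying degree. All 22 fibrillar and basement membrane collagens tested had a negative difference, 6 passed the unadjusted threshold and the median was -0.37, or -0.20 without 24-week replicate 7. Col28a1, a collagen of peripheral nerve, was at 11.92, 12.08, 11.74, 11.79 and 11.64 at 16 weeks and between 11.09 and 11.58 at 24 weeks (median 11.39), with no overlap. Its difference was -0.49 ± 0.10 (SE, exact permutation p = 0.00155). Col11a1 and Col1a1 were at -0.41 ± 0.13 and -0.61 ± 0.22, while Col3a1 at -0.61 ± 0.32 and Col6a1 at -0.44 ± 0.33 did not pass. Col26a1, outside the list, was at 10.84, 10.50, 10.27, 10.49 and 10.27 at 16 weeks and at 9.61 to 10.21 at 24 weeks (median 9.89), a difference of -0.59 ± 0.11 with no overlap. With adipocyte markers as a covariate, 19 of the 22 collagens were lower (median -0.54), as were 6 of 12 perineurial and fibroblast markers.

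Of 26 collagen processing and matrix genes, 1 was higher and 3 lower, with a median of -0.15, and 12 were lower with the adipocyte covariate. Lox, which cross-links collagen, was at 15.10, 15.05, 15.05, 14.86 and 15.04 at 16 weeks and 14.28 to 14.84 at 24 weeks, without overlap. Its difference was -0.42 ± 0.09 (SE). P4ha2, a collagen prolyl hydroxylase, was at 0.30 ± 0.12. Matn2, a matrix protein of Schwann cells, was at -0.35 ± 0.08, with all 8 libraries below the lowest 16-week value of 14.58.

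**Figure D3:**
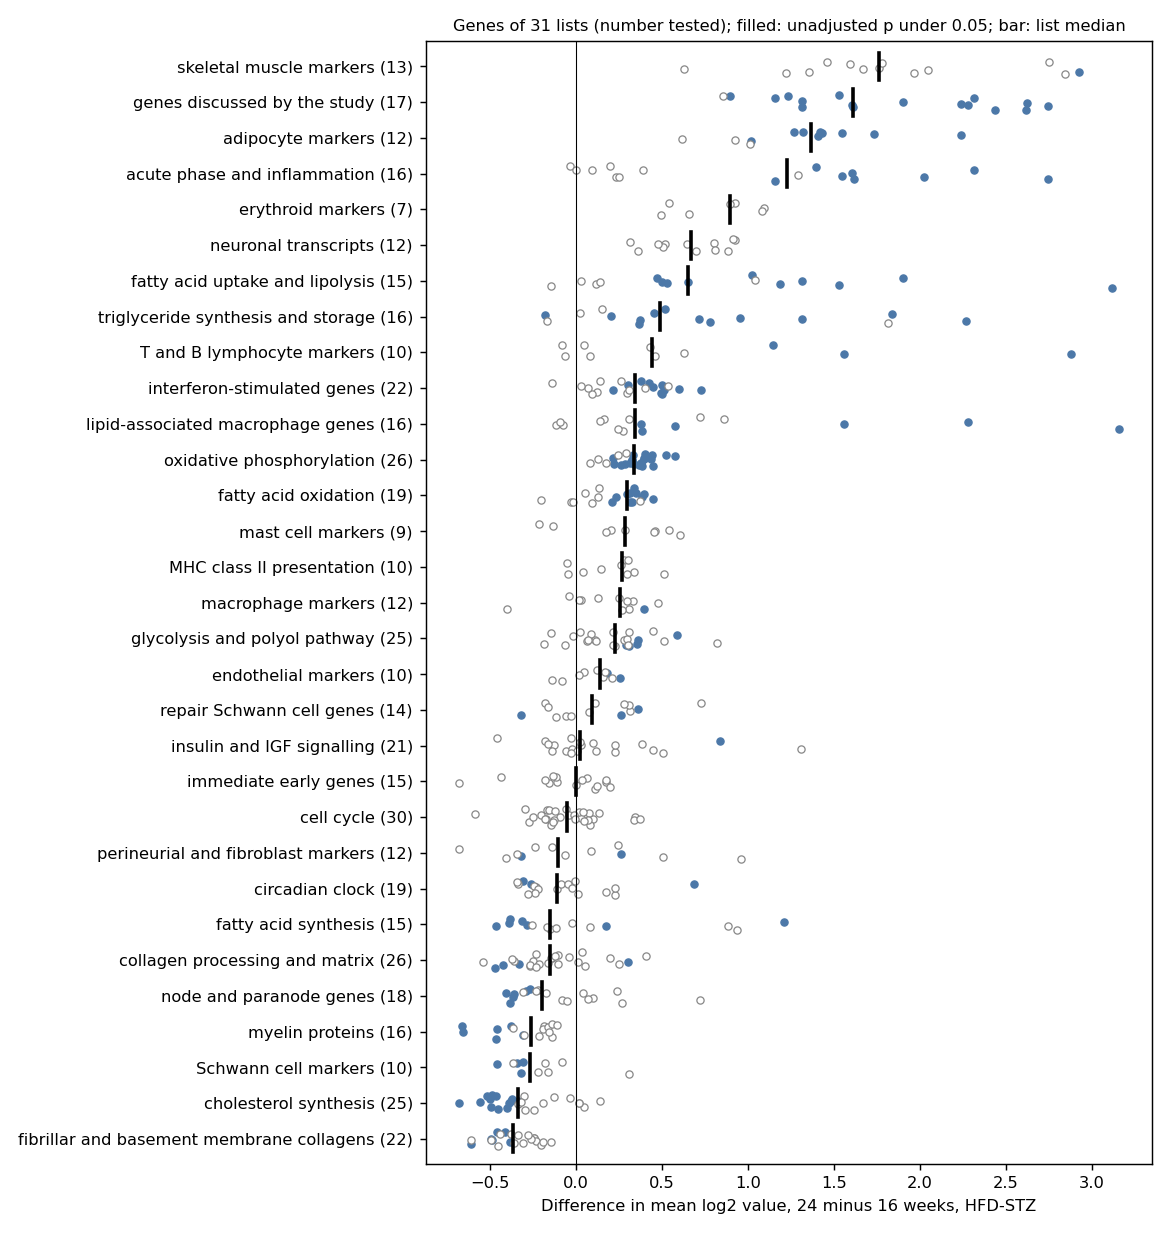
Difference in mean log2 value, 24 minus 16 weeks (x axis), for each tested gene of 31 lists in HFD-STZ nerve, with filled points for an unadjusted p under 0.05 and a bar at each list's median. Collagens (-0.37), cholesterol synthesis (-0.34), Schwann cell markers and myelin (both -0.26) have the lowest medians. Skeletal muscle markers (1.76), the list labelled as discussed by the study (1.61) and adipocyte markers (1.37) have the highest.

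TG synthesis and storage genes were higher at 24 weeks, together with adipocyte markers. Of 16 TG genes tested, 11 were higher and 1 lower, with a median of 0.49. Plin5, a lipid droplet protein, was at 5.61, 5.15, 6.60, 6.05 and 7.31 at 16 weeks and at 6.54 (lowest), 8.04 (median) and 9.29 (highest) at 24 weeks, so the groups overlapped. Its difference was 1.84 ± 0.49 (SE), with 6 of 8 above every 16-week library. Library numbers in the titles fall into runs, and with the run in the model Plin5 was at 2.25 and passed (limma adjusted p = 0.0292, or 0.0313 in the 5 runs with both ages alone), but it did not pass when all 8 groups and the run were in 1 fit (adjusted p = 0.166). Bscl2, which encodes seipin of the lipid droplet neck, differed by 0.38 ± 0.10. Cidea, a lipid droplet fusion protein picked after its values were seen, was at 3.20 to 4.01 at 16 weeks and 4.33 to 9.34 at 24 weeks, without overlap. Dgat2, which makes TG from diacylglycerol, was at 11.65, 10.61, 11.77, 11.76 and 12.67 at 16 weeks and at 11.37 to 14.14 at 24 weeks (median 13.42), a difference of 1.31 ± 0.47 (SE, exact permutation p = 0.035).

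Fatty acid uptake and lipolysis genes had 10 of 15 higher and 0 lower, with a median of 0.65. Gpihbp1, which anchors lipoprotein lipase to capillaries, was at 8.33, 8.01, 8.19, 8.24 and 9.03 at 16 weeks and at 8.51 to 10.16 at 24 weeks, a difference of 1.03 ± 0.26 (SE). Lpl itself and the fatty acid transporter gene Cd36 differed by 1.53 ± 0.63 and 1.31 ± 0.53, each with 5 of 8 libraries above every 16-week library. Fabp3, the fatty acid binding protein of muscle, ranged from 5.91 to 12.75 at 24 weeks and differed by 3.12 ± 0.93, or by 1.59 without the muscle-high libraries. Fatty acid oxidation genes had 11 of 19 higher and 0 lower, with a median of 0.30, and here Ech1 and Hadh differed by 0.33 ± 0.09 and 0.24 ± 0.07 (SE).

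Of 12 adipocyte markers, 9 were higher and 0 lower, with a median of 1.37. Most of the 9, such as Lep, Cidec and Adipoq, are rows of the study's supplement, from results on libraries that include those used here. The same holds for Plin5, Dgat2, Lpl and Cd36 of the lipid lists, so these counts are not wholly independent of the study's selection. With the markers' mean as a covariate, the number higher was 4 of 16 for TG genes, 3 of 15 for uptake and lipolysis and 2 of 19 for oxidation. Single genes moved by over 1.5 times, with Plin5 at 0.92, Gpihbp1 at 0.54, Dgat2 at 0.31, Cd36 at 0.16 and Lpl at 0.13 log2 units. Lep (leptin) and Cidec went from 2.24 and 1.73 to 0.51 and 0.24. Both are members of the marker list whose mean is the covariate, so their decrease was built in.

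Of the 17 genes of a list labelled as discussed by the study, 16 were higher at 24 weeks and 0 lower, with a median of 1.61. The study's text names some of them, such as Lipf, Lpl, Cd36, Dgat2, Saa3 and Il1rn. Others, such as Tph2 and Slc5a7, are only rows of its supplement, and Plppr4 was found in neither. Most of these genes come from the study's own results on libraries that include those used here, so they are no independent evidence of direction. Tph2, which makes serotonin in neurons, was at 4.35, 4.09, 4.0, 4.65 and 6.09 at 16 weeks and at 4.78 (lowest), 7.38 (median) and 8.91 (highest) at 24 weeks. The groups overlapped, with 6 of 8 above every 16-week library and a difference of 2.61 ± 0.66 (SE). The choline transporter gene Slc5a7 and 1700047G03Rik differed by 2.43 ± 0.70 and 2.62 ± 0.65, Sez6l by 1.60 ± 0.41, Plppr4 by 1.24 ± 0.27, Kcnj14 by 1.61 ± 0.49, Itgad by 2.28 ± 0.75, Lipf by 1.90 ± 0.66, Lpgat1 by 0.90 ± 0.32, Il1rn by 1.16 ± 0.47, and Pla2g2e, the member that did not pass, by 0.86 ± 0.43. With adipocyte markers as a covariate 9 were higher, with a median of 0.77, and Tph2 was at 1.54, Slc5a7 at 1.11 and Itgad at 1.26. Exons of other genes cover 19.7% of the exon sequence of Itgad.

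Acute phase and inflammation genes were higher with a wide spread. Of 16 tested, 8 were higher and 0 lower, with a median of 1.23. All 8 are also rows of the study's supplement, from its own results on libraries that include those used here. Their count is therefore no independent evidence of direction. Ubd, a ubiquitin-like protein induced by inflammatory cytokines, was at 4.90, 4.11, 4.48, 4.05 and 6.13 at 16 weeks and at 4.86 (lowest), 7.27 (median) and 9.21 (highest) at 24 weeks, and 7 of 8 lay above every 16-week library. Its difference was 2.75 ± 0.69 (SE). Saa3, an acute phase protein of adipose tissue and macrophages, differed by 2.32 ± 0.61, Hp (haptoglobin) by 2.02 ± 0.61 and Lrg1 by 1.55 ± 0.51, while Ccl2 and Cxcl1, early chemokines, were at 0.10 ± 0.14 and 0.25 ± 0.32. With adipocyte markers as a covariate 5 of the 16 were higher, and Ubd and Saa3 were at 1.66 and 1.51.

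Lipid-associated macrophage genes had 6 of 16 higher and 0 lower, with a median of 0.34. Of the 6, Mmp12, Itgax and Itgad are rows of the study's supplement too. With the adipocyte covariate 2 were higher and 1 lower (median 0.14). Mmp12, a macrophage elastase, was at 4.62, 6.09, 4.90, 5.09 and 8.36 at 16 weeks and at 6.44 (lowest), 8.94 (median) and 11.21 (highest) at 24 weeks, a difference of 3.16 ± 0.87 (SE), and of 2.25 with the adipocyte covariate. Itgax, the CD11c integrin, differed by 1.56 ± 0.48, with 7 of 8 above every 16-week library, and by 0.86 with the adipocyte covariate. General macrophage markers had 1 of 12 higher and 0 lower, with a median of 0.26, or 0 higher and 2 lower with the adipocyte covariate (median -0.02). C1qb was at 0.40 ± 0.18 and Cx3cr1 at -0.40 ± 0.19. Of 10 lymphocyte markers 3 were higher and 0 lower (median 0.45), the immunoglobulin genes Igkc at 2.88 ± 0.77 and Ighm at 1.14 ± 0.39, and Jchain at 1.56 ± 0.66. All 3 are rows of the study's supplement as well, so they are no independent evidence of direction. With the adipocyte covariate 2 were higher and 0 lower (median 0.35), with Igkc at 2.61 and Ighm at 0.49. In SD nerve, 3 of the 10 were also higher at the unadjusted threshold (median 0.43).

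Energy metabolism genes were higher by small amounts. All 26 oxidative phosphorylation genes had a positive difference, 21 were higher at an unadjusted p under 0.05 and the median was 0.34. Cox4i1, a subunit of cytochrome c oxidase, was at 13.35, 13.47, 13.52, 13.37 and 13.54 at 16 weeks and at 13.46 to 14.45 at 24 weeks (median 13.73), a difference of 0.38 ± 0.13 (SE) with 7 of 8 above every 16-week library. Cox5b, another subunit, differed by 0.45 ± 0.16. The count was 20 without 24-week replicate 7 (median 0.27) and 20 with the adipocyte covariate (median 0.42), but 5 without the 4 muscle-high libraries (median 0.33). The last setting has fewer libraries at 24 weeks and still holds replicate 7.

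Glycolysis and polyol pathway genes had 5 of 25 higher and 0 lower, with a median of 0.23. Ldha, which makes lactate, was at 13.53, 13.40, 13.72, 13.55 and 13.82 at 16 weeks and at 13.71 to 14.61 at 24 weeks (median 14.22), a difference of 0.59 ± 0.13 (SE), and Pfkl differed by 0.36 ± 0.15. Without replicate 7, 10 of the 25 were higher. Idh3g, a subunit of the citrate cycle's isocitrate dehydrogenase, and Mecr, of mitochondrial fatty acid synthesis, did not overlap, at 0.30 ± 0.07 and 0.48 ± 0.11, and Mecr was at 0.41 without replicate 7. Insulin and IGF signalling genes had 1 of 21 higher and 0 lower (median 0.02), or 5 without replicate 7. Igfbp3 was at 0.84 ± 0.36 and Pck1, an insulin-repressed enzyme, at 1.31 ± 0.61, which did not pass. In SD nerve, without STZ, 8 of the 21 were higher at the unadjusted threshold (median 0.20), with differences up to 2.21.

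Circadian clock genes had 1 of 19 higher and 2 lower, with a median of -0.11, and with adipocyte markers as a covariate 7 were lower and 1 higher (median -0.22). Nfil3, a repressor of the clock's output, was at 6.93, 7.43, 7.03, 7.25 and 7.37 at 16 weeks and at 7.58 to 8.60 at 24 weeks (median 7.65), without overlap and with a difference of 0.69 ± 0.19 (SE). Nr1d2 (REV-ERB beta) was at -0.31 ± 0.08, with 7 of 8 below every 16-week library, and Dbp at -0.26 ± 0.12. The core genes gave -0.34 ± 0.17 for Clock, 0.23 ± 0.21 for Arntl, -0.22 ± 0.14 for Per1, -0.28 ± 0.23 for Per2, -0.24 ± 0.19 for Per3, -0.04 ± 0.09 for Cry1 and 0.00 ± 0.08 for Cry2. Of the other members, Nr1d1 was at -0.23 ± 0.12 (-0.39 with the adipocyte covariate), Ciart at -0.34 ± 0.18 and Hlf at -0.24 ± 0.14, and Npas2, Tef, Bhlhe40, Bhlhe41 and Rora lay between -0.11 (Tef) and 0.18 (Npas2). Exons of Thra cover part of Nr1d1, and exons of Sphk2 part of Dbp. The time of day at which nerves were taken is not given in the labels. Immediate early genes, which respond within minutes to handling or injury, had 0 of 15 past the unadjusted threshold and a median of 0.00, or 3 lower with the adipocyte covariate (median -0.13), with Egr3 at -0.43 ± 0.25 and Ier3 at 0.11 ± 0.07 (SE). Cell cycle genes had 0 of 30 and a median of -0.05, with Top2a at -0.59 ± 0.35 and Birc5 at 0.34 ± 0.23.

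The other lists gave fewer differences. Skeletal muscle markers had 1 of 13 higher (median 1.76), with Acta1, the muscle actin, between 8.44 and 15.70 at 24 weeks. The difference of 2.92 ± 1.20 (SE) for Acta1 was 0.44 without the 4 muscle-high libraries, where the list's median was -0.37. Those libraries were picked by the mean of this same list, so both decreases were built in. Myh1, a fast muscle myosin, was at 1.46 ± 0.72. Endothelial markers had 2 of 10 higher (median 0.14), Esam at 0.18 ± 0.07 and Tie1 at 0.26 ± 0.11, and perineurial and fibroblast markers 1 of 12 higher and 1 lower (median -0.10), the latter Osr2 at -0.32 ± 0.15. Mast cell markers had 0 of 9 (median 0.29), with the mast cell proteases Cma1 at 0.61 ± 0.48 and Tpsb2 at 0.55 ± 0.51, and erythroid markers 0 of 7 (median 0.90), with the near-identical haemoglobin genes Hba-a1 and Hba-a2 at 1.09 ± 0.66 and 1.08 ± 0.67. Neuronal transcripts had 0 of 12 past the unadjusted threshold with a median of 0.67, and 0 of 20 with a median of 0.02 without 24-week replicate 7. In that library Trpv1, the capsaicin receptor of nociceptors, was at 10.78 against 5.97 to 6.83 in the other 24-week libraries, and Stmn2, a growth cone protein, at 14.32 against 9.46 to 10.38. Removing it took their differences from 0.93 to 0.38 and from 0.80 to 0.28.

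Several genes with small p-values belong to no list above. Tfr2, an iron-sensing transferrin receptor (chr5:137569840-137587481, plus strand), was at 4.92, 4.82, 4.73, 5.20 and 5.31 at 16 weeks and at 5.53 (lowest), 6.69 (median) and 7.70 (highest) at 24 weeks. The groups did not overlap, and the difference was 1.73 ± 0.33 (SE) or 3.32-fold (exact permutation p = 0.00233). Vegfb, a vascular growth factor linked to fatty acid transport, was tightly spread at 16 weeks, with 10.81, 10.87, 10.81, 10.80 and 10.87, and lay at 11.06 to 11.37 at 24 weeks (median 11.14), a difference of 0.36 ± 0.07. Tnfrsf12a, the receptor of the cytokine TWEAK, also did not overlap, at 8.53 to 8.88 and then 8.98 to 9.43, with a difference of 0.51 ± 0.09.

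Paqr9, a membrane protein of the progestin and adiponectin receptor family, was at 6.31, 6.49, 6.56, 6.76 and 7.92 at 16 weeks and at 6.62 (lowest), 8.99 (median) and 10.04 (highest) at 24 weeks, with 7 of 8 above every 16-week library. Its difference of 2.04 ± 0.48 (SE) passed in the fit over all 8 groups (adjusted p = 0.0423). The mitochondrial peptidase gene Immp2l differed by 0.61 ± 0.14 and Fbp2, a muscle form of fructose bisphosphatase, by 1.71 ± 0.34, both without overlap. Tmem182 differed by 1.41 ± 0.32, and by 1.85 with the run of library numbers in the model, where it passed (limma adjusted p = 0.00627, against 0.25 with all 8 groups and the run in 1 fit). With adipocyte markers as a covariate Tmem182 was at 0.85 and Paqr9 at 1.52, and the lowest value of Tmem182 over 28 alternatives was 0.60. Tmem132b differed by 1.51 ± 0.35 and Lnx1 by 1.13 ± 0.27.

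Among the lower genes, Npy6r, a receptor of the neuropeptide Y family, had the largest difference of the named genes. It was at 7.20, 7.32, 7.47, 7.11 and 7.10 at 16 weeks and at 4.76 (lowest), 5.95 (median) and 6.80 (highest) at 24 weeks, so the groups did not overlap. The difference was -1.38 ± 0.31 (SE), or 2.60-fold higher at 16 weeks, with an adjusted p of 0.0204 in the fit over all 8 groups and of 0.0555 there without replicate 7. Nup160, a nuclear pore scaffold protein, was at 10.77, 10.95, 11.06, 10.93 and 10.97 at 16 weeks and at 10.40 to 10.74 at 24 weeks, a difference of -0.38 ± 0.07 without overlap. Med22, Slc36a4, Rab8b, Tdg and the lipid transporter gene Abca2 also did not overlap, with differences between -0.25 (Tdg) and -0.47 (Abca2), and Ssfa2 was at -0.38 ± 0.08 with 7 of 8 below. Scn3b, a sodium channel subunit picked after its values were seen, was at 11.00, 11.08, 11.05, 10.89 and 10.95 at 16 weeks and at 10.07 to 10.99 at 24 weeks, where the highest value was that of replicate 7.

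To see whether these differences also occurred without STZ, the same ages were compared in SD and HFD nerve. In SD, 0 of 17813 genes passed in limma's test, with 965 higher (5.42%) and 901 lower (5.06%) at an unadjusted p under 0.05, and 45 passed in the fit over all 8 groups. In HFD, 12 of 18383 (0.0653%) passed, all lower at 24 weeks, with 492 higher (2.68%) and 591 lower (3.21%) at the unadjusted threshold. With the run of library numbers in the model, 0 of the HFD genes passed. Among the 12 were Hmgcs1, Lss, Cyp51, Sc5d, Mvd and Stard4 of the cholesterol list, Ugt8a of the myelin list, and Aacs, Cyp2j13, Scn3b and D430019H16Rik.

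Cholesterol synthesis genes were lower at 24 weeks in each of the 3 settings, with 21 of 25 lower in SD (median -0.46), 22 of 25 in HFD (median -0.39) and 13 of 25 in HFD-STZ. Hmgcs1 fell in HFD by 0.39 ± 0.07 (SE, adjusted p = 0.0427) and was at -0.44 ± 0.13 in SD and -0.49 ± 0.11 in HFD-STZ. Ugt8a fell in HFD by 0.56 ± 0.09 (adjusted p = 0.0287) and was at -0.60 ± 0.10 in SD. The HFD-STZ difference of Ugt8a minus that of SD was -0.06, with a 95% interval from -0.44 to 0.31, and minus that of HFD it was -0.10, from -0.45 to 0.25. Npy6r was at -1.03 ± 0.21 in SD and -0.99 ± 0.20 in HFD. Myelin genes had 11 of 16 lower in SD and 8 of 16 in HFD.

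ISGs had 0 of 22 past the unadjusted threshold in SD and 0 of 22 in HFD, with medians of -0.04 and -0.0025, against 11 of 22 in HFD-STZ. Irf7 was at 0.21 ± 0.14 in SD and 0.03 ± 0.21 in HFD. In the test of the difference between settings no gene passed after adjustment. Against SD, 0 of 17873 genes passed (smallest adjusted p 0.757) and 837 (4.68%) had an unadjusted p under 0.05. Against HFD, 0 of 18150 passed (smallest adjusted p 0.876) and 596 (3.28%) had an unadjusted p under 0.05. In these tests, 11 of the 22 ISGs had a larger difference in HFD-STZ than in SD at the unadjusted threshold (median 0.38), and 6 of 22 than in HFD (median 0.28). For Irf7 the excess was 0.52 over SD (95% interval 0.16 to 0.88) and 0.70 over HFD (0.18 to 1.22), and for Isg15 it was 0.89 (0.36 to 1.41) and 0.72 (0.15 to 1.29). Both genes were picked for their HFD-STZ differences, which enter each excess, and these unadjusted intervals do not allow for that. The Isg15 excess was larger than its HFD-STZ difference of 0.51, because its mean was lower at 24 weeks in both SD and HFD. Adipocyte markers had 11 of 12 higher at 24 weeks in SD, 0 of 12 in HFD and 9 of 12 in HFD-STZ. Over 24 alternatives, which include adipocyte markers as a covariate, the Irf7 excess was 0.46 to 0.59 over SD and 0.53 to 0.77 over HFD. For Bst2 it was 0.44 to 0.54 and 0.21 to 0.31. The part of adipocyte markers in the ISG list's counts between settings was not tested. Oxidative phosphorylation genes had 0 of 26 past the unadjusted threshold in SD and 0 of 26 in HFD, and 0 of 26 in either test of the difference. Even so, 25 of 26 had a positive difference in SD (median 0.17) and 24 of 26 in HFD (median 0.03), against a median of 0.34 in HFD-STZ. Mast cell markers were higher at the unadjusted threshold in SD (6 of 9, median 1.10) and HFD (7 of 9, median 0.96), against 0 of 9 in HFD-STZ, and the difference between settings passed that threshold for 1 of 9 against SD and 2 of 9 against HFD.

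**Figure D4:**
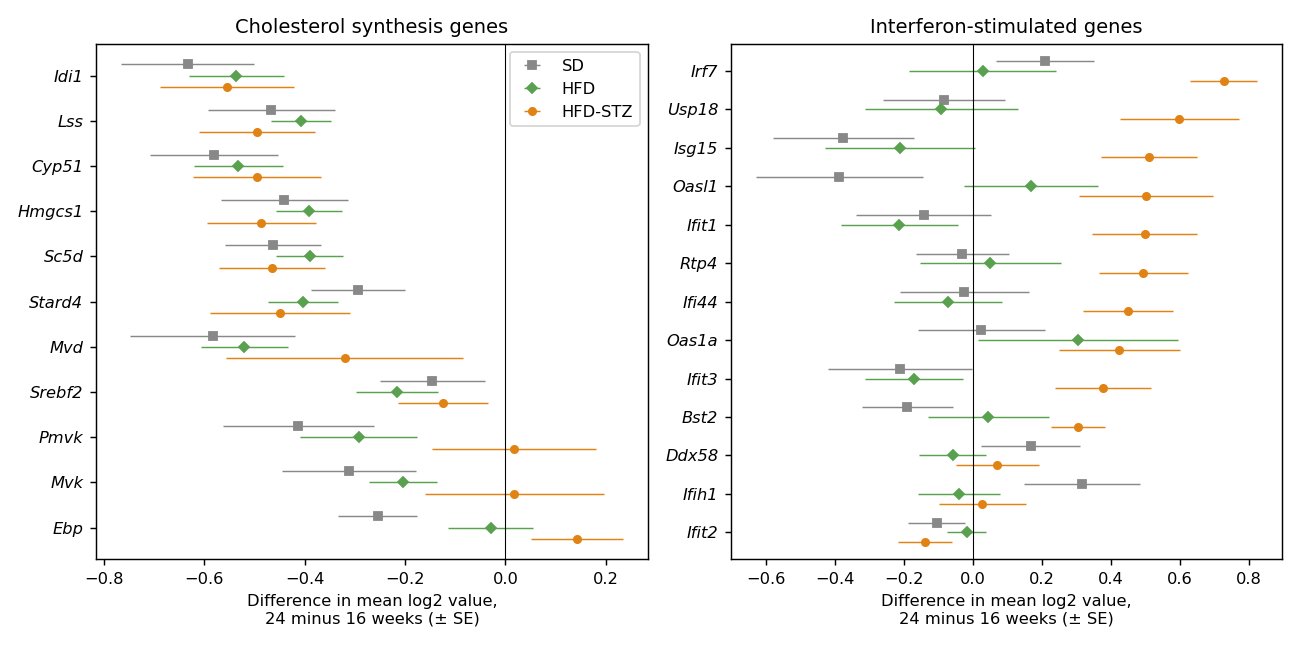
Difference in mean log2 value, 24 minus 16 weeks, with SE (x axis) for 11 cholesterol synthesis genes (left) and 13 ISGs (right) named in the text, in SD (grey squares, n = 5 and 8), HFD (green diamonds, n = 7 and 7) and HFD-STZ nerve (orange circles, n = 5 and 8). Most cholesterol synthesis genes are below 0 in all 3 settings, with Hmgcs1 at -0.44, -0.39 and -0.49, and most ISGs drawn are above 0 in HFD-STZ, with Irf7 at 0.21, 0.03 and 0.73.

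The genes with the smallest p in these tests also held some that differed little in HFD-STZ. Stk32b, a serine/threonine kinase gene, was at -0.25 ± 0.22 in HFD-STZ and 1.05 ± 0.17 in SD, and Cerkl at -0.18 ± 0.12 and 0.55 ± 0.15. Tph2 and Tfr2, higher in HFD-STZ, were at -0.08 ± 0.23 and 0.35 ± 0.17 in SD and at 1.95 ± 0.97 and 1.25 ± 0.50 in HFD. Mad2l1bp was at 0.47 ± 0.16 in HFD-STZ and -0.11 ± 0.09 in HFD, and Nlrp1b, an inflammasome sensor gene, at -0.78 ± 0.28 and 0.57 ± 0.24. Fam186b was under the filter on low values in HFD-STZ, with 3.03 to 3.94 at 16 weeks and 2.71 to 3.70 at 24 weeks. At the unadjusted threshold, the signed difference in HFD-STZ was lower than in SD for 7 of 19 circadian clock genes (median -0.42) and higher for 0. For collagens it was lower than in SD for 0 of 22 (median -0.22) and lower than in HFD for 3 of 22 (median -0.36). The collagen list's median age difference was -0.37 in HFD-STZ, -0.14 in SD and 0.05 in HFD.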

How the data were processed

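RNA-seq values of SCN were analysed. Per the labels, RNA was extracted with Trizol and libraries were made with a TruSeq mRNA kit, whereas the study's methods name other kits and non-stranded libraries. The authors aligned reads to mm10 with HISAT2 and counted them with featureCounts. They deposited 1 table per sample of log2 values by gene symbol, whose normalization is not given in the sources used here, so no count model was run. The members and gene lists were chosen with earlier results of these data known. Genes with a mean log2 value under 3.32 in the libraries compared, or any value above 22, were left out. Differences were tested with limma 3.58.1 (R 4.3.3), whose variance prior was let to vary with a gene's level, and Benjamini-Hochberg adjustment over all genes tested, at 0.05. The script was tested on simulated data. Named genes are the 15 with the smallest p in each direction (predicted genes skipped), the 2 with the smallest p of each list, and the 2 in each direction of each test between settings. The tested genes of the circadian list and of the list labelled as discussed by the study are named too. Lss, Sc5d, Selenoi, Scn3b, Mboat1, Slco3a1, Gmpr, Isg15, Ifit1, Ifit3, Cidea and other list members were named after their values were seen. Some genes that the rule names are not reported here. Single genes were also tested with a 2-sided exact permutation test. Titles carry library numbers that fall into 8 runs of consecutive numbers, of which 5, with 10 of the 13 libraries, hold both ages, and a run is not a labelled batch. Genes were placed with GENCODE M21. Figures were drawn with matplotlib 3.10.9 in Python 3.11.15.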

Additional observations from a re-analysis of the deposited data

Results flagged for a closer look

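In 7 of 194 sets of values (88 genes and 9 marker lists at each age), 1 library lay far from the others by Dixon's ratio, the gap to the nearest library over the group's range. Chance flags about 1 in 20 sets. In 24-week replicate 7, Trpv1 was highest at 10.78 (ratio 0.822), Stmn2 at 14.32 (0.811) and Mecr at 10.81 (0.578). In 24-week replicate 8, Cidea was highest at 9.34, against 4.33 to 6.64 in the others (0.538). At 16 weeks, Paqr9 was highest in replicate 5 at 7.92, against 6.31 to 6.76 (0.720), Igkc was highest in replicate 2 at 5.95, against 3.79 to 4.19 (0.815), and Lox was lowest in replicate 4 at 14.86, against 15.04 to 15.10 (0.765).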

How the results depend on the processing

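The labels give no replicate numbers that tie libraries of the 2 ages together, so a library's run was the only block used. The HFD-STZ age comparison called 0 genes without the filter on low values, with a mean of at least 5, without trend, with robust empirical Bayes, with genes above 22 kept, with adipocyte or muscle markers as covariates, and without the 4 muscle-high libraries. Leaving out 1 library gave 0 to 1 genes, the 1 being Irf7 without 24-week replicate 6 or 16-week replicate 5. Centring each library gave 1 (Irf7), the run of library numbers in the model gave 3 (Tmem182, Plin5 and Gmpr, log2 1.85, 2.25 and 1.48), and so did the runs with both ages alone. All 8 groups in 1 fit gave 13, the same with the run 30 (26 lower), and the same without 24-week replicate 7 gave 1. In SD, all 8 groups gave 45 and with the run 126, and in HFD, where 12 passed, the run gave 0 and all 8 groups with the run 23. Against HFD, 2 low genes passed without the filter. Of the 88 genes' differences, 87 kept their direction in every alternative, and Pla2g2e was at -0.011 with the adipocyte covariate and at -0.153 with both covariates. Of the differences between settings, all far from the threshold, 5 values changed sign. Against SD, Ugt8a was at 0.0018 without 24-week replicate 1. Against HFD, the adipocyte covariate gave Tfr2 -0.14, Tph2 -0.63, Plppr4 -0.0045 and Ugt8a 0.024. The cause of these changes was not tested. The alternatives with both covariates, without the muscle-high libraries, with all 8 groups and the run, and with all 8 groups without replicate 7, and the list counts without doubted libraries, were chosen after seeing the data. Unknown depth leaves the precision of low values, such as those of Tfr2 and Fbp2, unstated.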

Other observations

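The 6 libraries of HFD-STZ-DR mice, in which HFD gave way to the control diet for 8 weeks up to the end at 24 weeks, belong to neither age group compared. Their values for the main genes are given without a test. Irf7, the interferon response factor, was at 9.53 to 10.47 (median 9.89), and Isg15 at 8.48 to 9.69 (median 8.94). Tfr2, the iron-sensing receptor, was at 4.53 to 5.12, below every HFD-STZ library at 24 weeks, and Saa3 was at 2.51 to 3.25, likewise below every one of them. Ubd was at 3.90 to 5.02, Tph2 at 2.88 to 5.42 and Mmp12 at 5.13 to 6.85. Ugt8a was at 15.03 to 15.62 (median 15.47) and Npy6r at 5.99 to 7.21 (median 6.81). Adipocyte markers averaged 7.94 to 10.76 in these libraries, against 10.06 to 12.82 in HFD-STZ at 24 weeks, and their part in these values was not tested.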
